A study of Mus musculus with 1 sample.

Results

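The inhibitors of cyclin-dependent kinases (CDKs) are a set of 7 mouse genes: Cdkn1a, Cdkn1b, Cdkn1c, Cdkn2a, Cdkn2b, Cdkn2c and Cdkn2d. They were picked by symbol from the 32285 genes of a single-cell RNA matrix, and each symbol matched 1 gene. The matrix came from 1 library of mouse gastric organoids, epithelial cultures grown from stomach, with the genotype given as wild type and the treatment as none. The cultures were collected on day 7 after seeding and made into single cells with 0.05% trypsin-EDTA for 30 min at 37 °C. The labels do not say from how many animals or cultures the cells came. Further organoid genotypes named in the series text were not analysed here. With 1 library there was no replicate, so nothing was tested, and all intervals below are 95% intervals that cover counting error only.

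CDKs drive a cell through its division cycle when they are bound by cyclins, and 2 families of small proteins hold them back. The INK4 proteins p15, p16, p18 and p19Ink4d bind CDK4 and CDK6 and keep the retinoblastoma protein active. The CIP/KIP proteins p21, p27 and p57 bind complexes of cyclins with CDKs more widely, and p21 is a well-known target of the transcription factor p53. In many normal tissues p16 is close to silent, and it is known to be switched on by long culture and in senescence, the lasting arrest of the cell cycle.

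Of 1991 deposited barcodes, 1892 passed a filter of 500 or more detected genes and no more than 20% of unique molecular identifiers (UMIs, 1 per captured RNA molecule) from mitochondrial genes. These cells held 20118334 gene UMIs, with a median of 8512.5 per cell (range 890 to 47183). The epithelial label was borne out by its markers: Epcam had a UMI in 96.6% of cells, Krt8 in 97.9% and Krt18 in 99.6%. The pit cell gene Tff1 had one in 54.7% of cells and Gkn1 in 23.0%. Of the mucous neck genes, Tff2 had one in 7.08% and Cd44 in 23.5%, while Muc6 had 1 UMI in all. Of the chief cell genes, Pgc had 71 UMIs in 31 cells and Pga5 none, and of the parietal cell genes Atp4a had 29 UMIs in 27 cells and Atp4b none. The endocrine gene Chga had none. The immune gene Ptprc had a UMI in 1 cell and the endothelial gene Pecam1 in 3 cells. Of the mesenchymal genes, Vim had one in 54 cells (2.85%), Pdgfra in 5, Col1a1 and Acta2 in 1 each, and Col1a2 and Col3a1 in none. For a gene with no UMI in these cells, the upper limit on the share with a UMI is 0.159%, which says nothing of how many cells express it. The library carried multiplexing tags, oligonucleotides that mark the cells of a suspension before pooling, and CMO301 was the highest tag in 1062 cells and CMO302 in 830. The labels do not say what either tag marked.

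The 7 genes lie on 5 chromosomes (GRCm38, GENCODE release M21). Cdkn2a (ENSMUSG00000044303, chromosome 4, 89274471 to 89294653, minus strand) and Cdkn2b (ENSMUSG00000073802, chromosome 4, 89306299 to 89311039, minus strand) are neighbours, 11645 bases apart. Cdkn2c lies elsewhere on chromosome 4 (ENSMUSG00000028551, 109660876 to 109667189, minus strand). Cdkn2d is on chromosome 9 (ENSMUSG00000096472, 21288410 to 21291407, minus strand), Cdkn1a on chromosome 17 (ENSMUSG00000023067, 29090976 to 29100727, plus strand) and Cdkn1b on chromosome 6 (ENSMUSG00000003031, 134920401 to 134925513, plus strand). Cdkn1c is on chromosome 7 (ENSMUSG00000037664, 143458339 to 143461050, minus strand), and its antisense gene Gm44732 had 0 UMIs. Cdkn2a makes 2 proteins from separate first exons. Its transcript Cdkn2a-201, from 89282192, encodes p16Ink4a, and Cdkn2a-202, from 89294653, encodes p19Arf, which stabilises p53 and is no CDK inhibitor itself. Both end in the same last exon, 89274471 to 89274774 in Cdkn2a-201 and 89274541 to 89274774 in Cdkn2a-202. The library counted the 3' ends of transcripts, so every Cdkn2a value below is the sum of both and cannot be divided between them.

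The 250 bases before the starts of Cdkn1a and Cdkn2a are shown (RefSeq, GRCm38.p6, read 5′ to 3′ on the gene's own strand). They were chosen because Cdkn1a differed most by fold between groups of cells and Cdkn2a was the most abundant of the 7. In the first, at chr17:29090729-29090978, capitals mark a match to CATGNNNNNNCATG, a spaced pair like that in p53 sites. In the second, at chr17:29093519-29093768, and in the third, at chr4:89294620-89294869, they mark GGGCGG, the GC box. The fourth, at chr4:89282193-89282442, held no match to either and has no capitals.
Cdkn1a, first start: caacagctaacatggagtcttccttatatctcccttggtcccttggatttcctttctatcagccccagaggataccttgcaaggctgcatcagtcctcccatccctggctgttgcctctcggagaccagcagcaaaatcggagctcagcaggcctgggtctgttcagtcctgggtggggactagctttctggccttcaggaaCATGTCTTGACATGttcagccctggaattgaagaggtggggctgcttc
Cdkn1a, second start: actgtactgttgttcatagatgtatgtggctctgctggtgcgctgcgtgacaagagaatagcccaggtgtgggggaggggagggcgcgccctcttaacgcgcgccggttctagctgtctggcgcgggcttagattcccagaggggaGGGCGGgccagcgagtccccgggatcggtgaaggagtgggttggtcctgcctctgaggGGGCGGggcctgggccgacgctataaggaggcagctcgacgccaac
Cdkn2a, Arf start: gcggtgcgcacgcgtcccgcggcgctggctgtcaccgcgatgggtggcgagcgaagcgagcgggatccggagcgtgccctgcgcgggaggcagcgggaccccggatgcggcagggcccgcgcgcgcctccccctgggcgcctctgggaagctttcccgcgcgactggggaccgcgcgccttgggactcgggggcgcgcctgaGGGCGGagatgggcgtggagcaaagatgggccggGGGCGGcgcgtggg
Cdkn2a, Ink4a start: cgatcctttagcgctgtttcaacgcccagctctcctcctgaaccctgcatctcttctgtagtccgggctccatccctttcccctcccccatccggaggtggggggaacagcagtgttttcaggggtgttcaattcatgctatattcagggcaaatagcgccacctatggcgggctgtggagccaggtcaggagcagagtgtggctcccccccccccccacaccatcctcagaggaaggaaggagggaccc
Both strands were searched, for these 2 motifs and for TATAAA. The p53-type pair was in 0.490% of 32851 RefSeq windows of this length, the GC box in 32.7% and TATAAA in 12.4%. Of 9 windows found for 6 of the 7 genes, the pair was only before the first Cdkn1a start, with its first base at -48. GC boxes began at -104 and -46 before the second Cdkn1a start and at -48 and -14 before the Arf start. They were also before 1 start each of Cdkn1b, Cdkn2c and Cdkn2d, and no window of the 9 held TATAAA. The Arf window had a GC content of 78.4% and 40 CpG dinucleotides, against 60.0% and 7 at the Ink4a start and medians of 52.4% and 6 over all windows. A match describes letters only, not binding.

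Cdkn2a was by far the most abundant CDK inhibitor. A level in CPM is a gene's number of UMIs per 1000000 gene UMIs in the same cells. Each UMI marks 1 transcript end, so levels were not divided by length and can be set side by side between genes as captured molecules. For Cdkn2a 10032 UMIs were counted, which is 499 CPM (489 to 509), and 1700 cells (89.9%) had at least 1. That placed it at or above 98.6% of the 16967 genes with a UMI. A cell had a median of 4 Cdkn2a UMIs and at most 37, and 848 cells had 5 or more.

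The other INK4 genes were lower. Cdkn2b, which encodes p15, had 1002 UMIs, 49.8 CPM (46.8 to 52.99), in 677 cells (35.8%). Cdkn2d, which encodes p19Ink4d, had 608 UMIs, 30.2 CPM (27.9 to 32.7), in 472 cells (24.9%). Cdkn2c, which encodes p18, had 141 UMIs, 7.01 CPM (5.90 to 8.27), in 134 cells (7.08%), and never more than 2 UMIs in a cell. The intervals of the chromosomal neighbours Cdkn2a and Cdkn2b were far apart.

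Of the CIP/KIP genes, Cdkn1b, which encodes p27, was the highest, with 972 UMIs, 48.3 CPM (45.3 to 51.4), in 668 cells (35.3%). Cdkn1a, which encodes p21, had 404 UMIs, 20.1 CPM (18.2 to 22.1), in 224 cells (11.8%). Cdkn1c, which encodes p57, had 148 UMIs, 7.36 CPM (6.22 to 8.64), in 127 cells (6.71%). Cdkn1b and Cdkn2b had overlapping intervals, as had Cdkn1c and Cdkn2c, and the other neighbours in the order of levels did not overlap. The 7 genes together had 13307 UMIs, of which Cdkn2a held 75.4%, Cdkn2b 7.53%, Cdkn1b 7.30%, Cdkn2d 4.57%, Cdkn1a 3.04%, Cdkn1c 1.11% and Cdkn2c 1.06%. Levels in cells led by either tag had overlapping intervals for each gene; Cdkn2a, for example, was at 495 CPM (482 to 509) in cells led by CMO301 and 503 CPM (488 to 518) in those led by CMO302.

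Shares of cells depend on depth. With each cell thinned at random to 3000 UMIs, which kept 1835 cells and left out 57 shallower ones, a UMI was left in 70.2% of cells for Cdkn2a (68.0 to 72.3), 12.2% for Cdkn2b, 11.5% for Cdkn1b, 8.45% for Cdkn2d, 4.69% for Cdkn1a, 2.34% for Cdkn2c and 2.29% for Cdkn1c. The order of the genes by share was close to that by level. No group of cells known to lack these genes was at hand, so the part of free RNA in the droplets was not measured, either in these shares or in the counts below of genes found in the same cell.

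**Figure D1:**
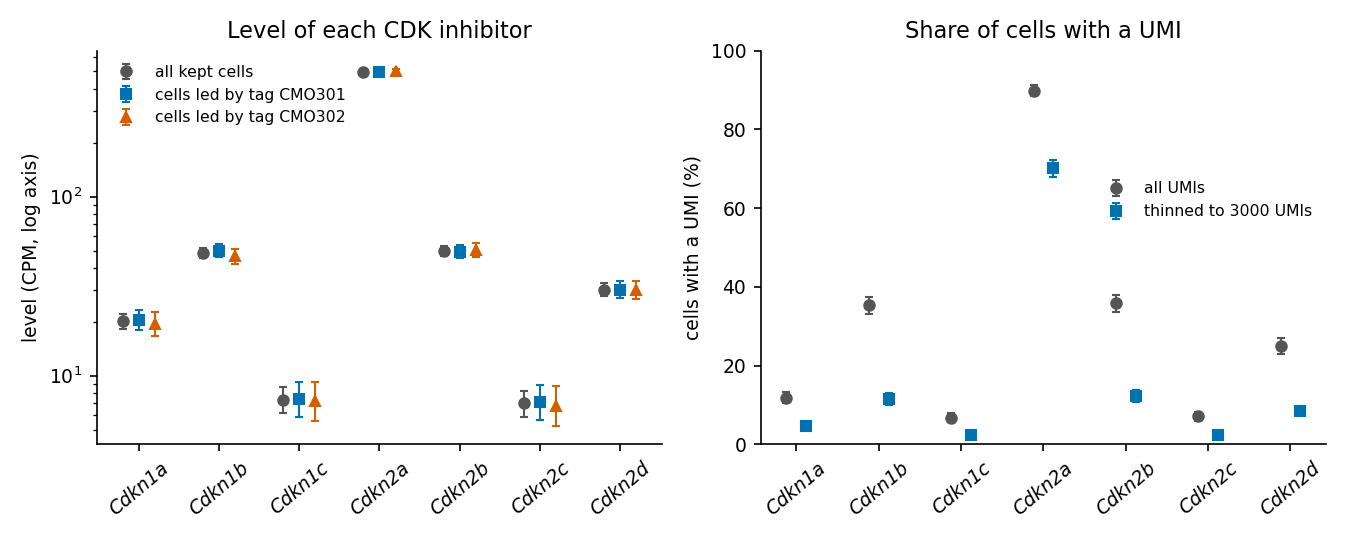
Left, level of each CDK inhibitor in CPM (log axis) in all kept cells and in the cells led by each multiplexing tag. Right, share of cells with a UMI before and after thinning to 3000 UMIs per cell; points are values of 1 library and bars are exact 95% counting intervals, with Cdkn2a (499 CPM, 89.9% of cells) far above the other 6 genes.

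Most cells held RNA of more than 1 CDK inhibitor. At full depth 1806 of 1892 cells (95.5%) had a UMI of at least 1 of the 7 genes, 1246 (65.9%) of at least 2 and 620 (32.8%) of at least 3. All 7 were found in 1 cell. After thinning the shares were 80.4% (78.5 to 82.2) for at least 1 gene and 25.9% (23.9 to 28.0) for at least 2.

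Cdkn2a led in most cells. It was the single highest of the 7 genes in 1502 cells (79.4%), against 41 cells for Cdkn1b, 34 for Cdkn2b, 22 for Cdkn2d, 19 for Cdkn1a, 7 for Cdkn2c and 5 for Cdkn1c; in 176 cells genes tied. It was also the only one detected in 493 cells, while Cdkn1b stood alone in 24, Cdkn2b in 17 and Cdkn1a in 5. By family, 805 cells (42.5%) had UMIs of both INK4 and CIP/KIP genes, 967 (51.1%) of INK4 genes only and 34 (1.80%) of CIP/KIP genes only. After thinning these shares were 13.5%, 62.8% and 4.14%. Without Cdkn2a, 579 of 1892 cells (30.6%) had no UMI of the other 6 genes at full depth, and 1204 of the 1835 thinned cells (65.6%).

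No pair of the 7 genes was mutually exclusive. Each of the 21 pairs was found together in at least 12 cells (Cdkn1c with Cdkn2c) and in up to 633 (Cdkn2a with Cdkn2b). At full depth all 42 ordered pairs showed the second gene in a larger share of the cells with the first gene than of those without it. Cells with a gene were also deeper: those with a Cdkn1a UMI had a median of 13770.5 UMIs and those without 8109. At equal depth, in thinned cells, the share without the first gene lay inside the interval of the share with it in 41 of the 42. The exception was Cdkn2b, in 12.8% (11.0 to 14.8) of thinned cells with a Cdkn2a UMI and 10.6% (8.15 to 13.5) of those without, and even these 2 intervals overlapped. Few thinned cells held some of the first genes: 42 held Cdkn1c, 43 Cdkn2c and 86 Cdkn1a. Their intervals were wide, so these shares do not show that the genes are independent.

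Examples between the families follow. Cdkn2a was left in 72.1% (61.4 to 81.2) of thinned cells with Cdkn1a and 70.1% (67.9 to 72.2) of those without. Cdkn1b was left in 14.3% (10.0 to 19.6) of thinned cells with Cdkn2b and 11.1% (9.61 to 12.7) of those without. The intervals with and without the first gene overlapped in both examples.

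Levels gave a finer comparison than shares. The ratio of CPM between cells with and without the other gene had an interval that held 1 in 31 of the 42 ordered pairs, lay above 1 in 7 and below 1 in 4. Cdkn2a was at 438 CPM in cells with Cdkn1a and 511 CPM in cells without, a ratio of 0.858 (0.812 to 0.905). It was 0.911 times as high in cells with Cdkn1b (0.875 to 0.948) and 0.854 times in cells with Cdkn2c (0.796 to 0.916). The other 1 of the 4 below 1 was Cdkn1a in cells with Cdkn2a, at 0.637 (0.452 to 0.923), and without cluster 8, a group of cells described below, it was 1.18 (0.666 to 2.32). Cdkn1a was 1.84 times as high in cells with Cdkn2c (1.40 to 2.40) and 1.27 times in cells with Cdkn2d (1.03 to 1.56), and without cluster 8 these intervals held 1 (1.29, 0.858 to 1.89, and 1.28, 0.979 to 1.65). Cdkn1b was 1.30 times as high in cells with Cdkn1c (1.06 to 1.58) and 1.23 times in cells with Cdkn2c (1.01 to 1.501). Cdkn2c had a ratio of 1.43 by Cdkn2d (1.003 to 2.03), and Cdkn2b of 1.14 by Cdkn1b (1.01 to 1.29). Cells with Cdkn2b had 1.06 times the Cdkn2a level of cells without (1.02 to 1.11). The interval of Cdkn1a by Cdkn1c held 1 with all cells (0.899, 0.614 to 1.28) and lay above 1 without cluster 8 (1.49, 1.004 to 2.14). Of the 11 pairs whose interval did not hold 1, the ratio in thinned cells was computed for 4. It was 1.44 (1.006 to 2.02) for Cdkn2b by Cdkn1b and 1.16 (1.04 to 1.29) for Cdkn2a by Cdkn2b, while the intervals of Cdkn2a by Cdkn1a (0.937, 0.776 to 1.12) and by Cdkn1b (0.952, 0.844 to 1.07) held 1. Pearson correlations of the normalised counts over the 1892 cells, computed for the 5 genes with at least 200 UMIs against each other member, lay between -0.04 and 0.07. The points are cells of 1 library that differ in depth, and in counts this sparse such values are no finding.

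**Figure D2:**
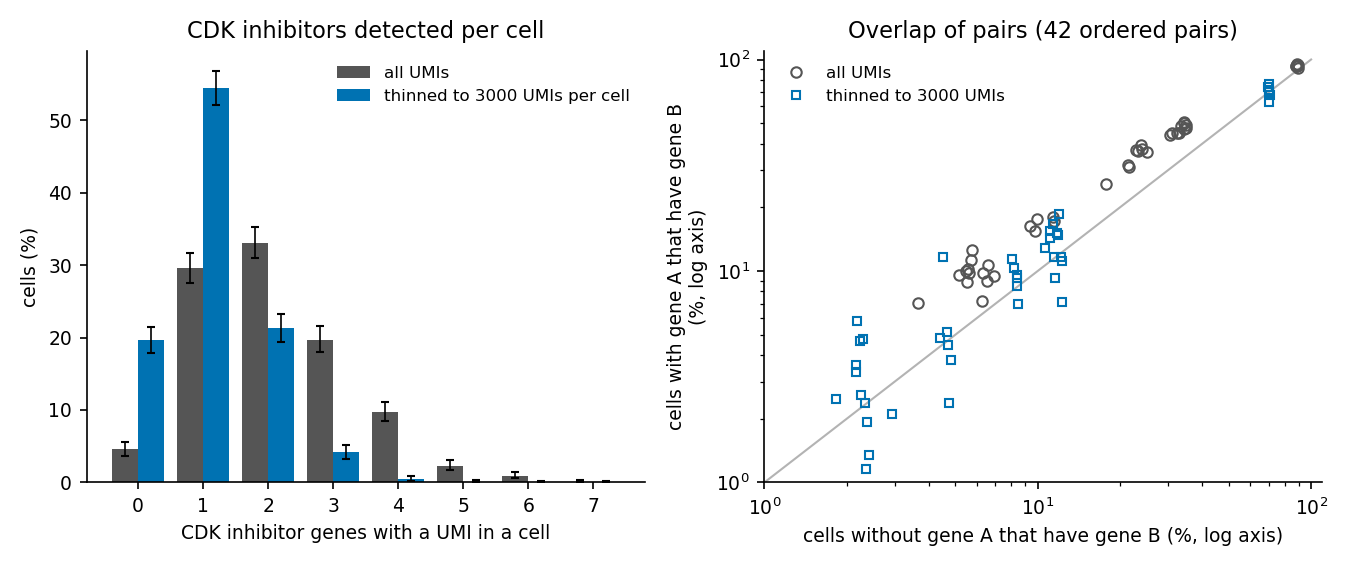
Left, percent of cells by the number of CDK inhibitor genes with a UMI, at full depth and thinned to 3000 UMIs (bars from 0, exact 95% intervals). Right, for each of the 42 ordered pairs, percent of cells with gene B among cells without (x axis) and with (y axis) gene A, both log axes; full-depth pairs all lie above the diagonal line of equal shares, while thinned pairs scatter around it.

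Genes whose normalised counts went most with each inhibitor over the 1892 cells were listed for the 5 inhibitors with at least 200 UMIs, among 6681 genes, as a description. The closest to Cdkn2a were Rhox5 (r = 0.354), Aqp5 (0.337) and Ly6e (0.318). Those closest to Cdkn1a were Gm3776 (0.262), the glutathione transferase gene Gsta1 (0.256) and the aldehyde dehydrogenase gene Aldh3a1 (0.193). Gm3776 (97.4-fold) and Gsta1 (58.3-fold) are also leading genes of cluster 8, described below. Correlations without that cluster were not computed. All 5 of the closest to Cdkn2d were genes of mitosis and chromosome structure: Nusap1 (0.197), Mki67 (0.187), Cenpf (0.186), Top2a (0.182) and Ccnb2 (0.182). The closest to Cdkn1b was Ccni (0.171) and to Cdkn2b was Nupr1 (0.138). Cells share 1 library and differ in depth, and values of this size leave most of the variation undescribed.

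The question of which inhibitors go with cell division was taken to the cells with Mki67 or Top2a RNA. Mki67 encodes the proliferation antigen Ki-67, and Top2a a topoisomerase that untangles DNA before mitosis. Mki67 was at 27.2 CPM, in 229 cells (12.1%), and Top2a at 68.5 CPM, in 432 cells (22.8%). Both differed by tag beyond their intervals: Mki67 was at 31.2 CPM (27.98 to 34.6) in cells led by CMO301 and 22.2 CPM (19.2 to 25.5) in those led by CMO302, and Top2a at 75.8 CPM (70.7 to 81.0) and 59.5 CPM (54.6 to 64.8). A UMI of either was in 521 cells (27.5%), of both in 140, of Mki67 only in 89 and of Top2a only in 292. The 521 cells were deeper, with a median of 11661 UMIs against 7780 in the 1371 cells with neither.

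Cdkn2a RNA was found in most cells both with and without these marks of division. It was at 527 CPM in the 521 cells and 483 CPM in the 1371, a ratio of 1.09 (1.05 to 1.14), where the median over 8653 genes with at least 100 UMIs was 1.08. A Cdkn2a UMI was in 94.4% of the 521 cells and 88.1% of the 1371, and after thinning in 74.2% (70.2 to 77.9) and 68.6% (66.0 to 71.1). In cells with both Mki67 and Top2a it was at 546 CPM, 1.13 times the level in cells with neither (1.06 to 1.20). By single mark the direction differed: Cdkn2a was at 426 CPM in the 89 cells with Mki67 only, a ratio of 0.881 (0.79996 to 0.969) to cells with neither, and at 546 CPM in the 292 cells with Top2a only, a ratio of 1.13 (1.07 to 1.19).

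Cdkn1a and Cdkn2d had the highest ratios at full depth. Cdkn1a was at 28.5 CPM in the 521 cells and 15.5 CPM in the 1371, a ratio of 1.84 (1.503 to 2.24). Cdkn2d was at 37.7 and 26.2 CPM, a ratio of 1.44 (1.22 to 1.70). Thinned shares were 6.98% (4.93 to 9.53) and 3.79% (2.83 to 4.97) of cells for Cdkn1a, and 11.4% (8.82 to 14.5) and 7.28% (5.93 to 8.82) for Cdkn2d. The intervals of Cdkn1a overlapped, and those of Cdkn2d met.

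The other 4 genes had intervals that held 1 at full depth. Cdkn1b was at 50.2 and 47.3 CPM, a ratio of 1.06 (0.929 to 1.21). Cdkn2b was at 46.8 and 51.4 CPM, a ratio of 0.910 (0.795 to 1.04). Cdkn1c (1.34, 0.948 to 1.87) and Cdkn2c (1.30, 0.910 to 1.83) had few UMIs. By a Mki67 UMI alone, with or without Top2a, the Cdkn2c ratio was 1.75 (1.17 to 2.57). Ratios were also computed in cells thinned to equal depth and grouped by the marks left after thinning. There Cdkn2b had a ratio of 0.653 (0.414 to 0.988), Cdkn2c of 2.38 (1.11 to 4.76) and Cdkn2d of 1.69 (1.13 to 2.48). These intervals lay off 1, yet each held the full-depth ratio of its gene. The thinned intervals held 1 for Cdkn1a (1.67, 0.991 to 2.70), Cdkn2a (1.09, 0.980 to 1.21), Cdkn1b (0.825, 0.530 to 1.24) and Cdkn1c (0.787, 0.242 to 1.999). Counted as 1.5-fold or more, 1 of the 7 inhibitors was higher in the 521 cells, Cdkn1a, and none was lower, where 5.43% of the 8653 genes were higher and 0.508% lower. The median ratio of the 7 was 1.30.

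The Cdkn1a ratio moved with 1 small group of cells. Clustering left out the 7 genes and listed S phase, G2/M, cyclin and CDK genes, but not every gene of the cell cycle. It gave 8 clusters, and cluster 8 held 63 cells (3.33%) led by Cyba, Reg3g and Gm3776. Without it, the Cdkn1a ratio was 1.52 (1.18 to 1.97) for cells with either mark, and in cells with both marks it went from 2.74 (2.14 to 3.51) to 1.14 (0.692 to 1.79). Over the same cells the Cdkn2d ratio for both marks went from 2.07 (1.68 to 2.55) to 2.26 (1.79 to 2.82), at 59.8 against 26.5 CPM. The Cdkn2d ratio varied in other ways. For either mark it was 1.64 (1.31 to 2.04) in cells led by CMO301 and 1.22 (0.948 to 1.57) in those led by CMO302. Against cells with neither mark it was 1.10 (0.733 to 1.59) with Mki67 only and 1.14 (0.912 to 1.42) with Top2a only.

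For both marks Cdkn2c also had an interval above 1, on few UMIs. Its level was 13.8 CPM in cells with both marks and 6.35 CPM in cells with neither, a ratio of 2.17 (1.40 to 3.30), and 2.47 (1.54 to 3.86) without cluster 8. With 1 mark only its intervals held 1, at 0.729 (0.231 to 1.77) with Mki67 only, from 5 UMIs, and 0.906 (0.533 to 1.48) with Top2a only. Of the other genes without cluster 8, Cdkn2a had a ratio of 1.31 (1.23 to 1.40) and Cdkn1b of 1.26 (1.01 to 1.55) for both marks, Cdkn1c of 1.07 and Cdkn2b of 1.04. In cells with both marks, 14.9% of genes were 1.5-fold or more higher and 3.27% lower, and without cluster 8 the shares were 12.8% and 3.40%. The ratio for both marks was at or above that of 96.4% of genes for Cdkn2c and 95.8% for Cdkn2d, and without cluster 8 of 97.9% and 97.5%.

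**Figure D3:**
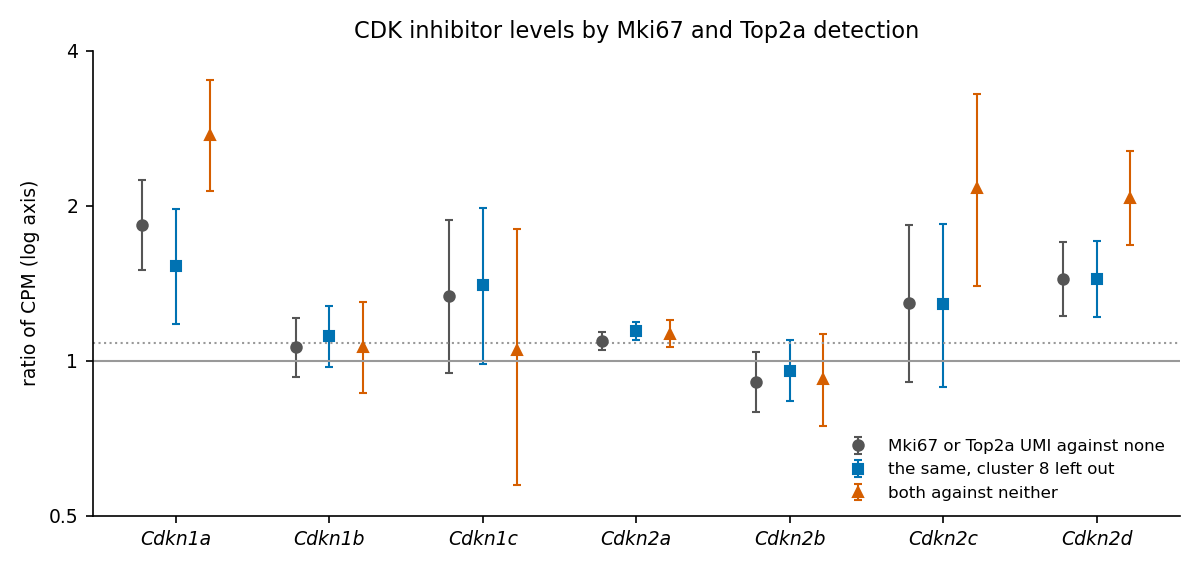
Ratio of CPM of each CDK inhibitor (log axis) between cells with a UMI of Mki67 or Top2a and cells with neither, the same without cluster 8, and between cells with both and cells with neither. Bars are exact 95% counting intervals and the dotted line is the median of all genes in the first of these comparisons, 1.08. For both marks the interval of Cdkn1a (2.74) overlaps those of Cdkn2c (2.17) and Cdkn2d (2.07).

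Calls of the cell cycle phase from lists of S and G2/M genes, with Mki67 and Top2a among the latter, put 1203 cells in G1, 345 in S and 344 in G2/M. Cdkn2d differed by phase, at 25.1 CPM in G1, 27.0 CPM in S and 51.2 CPM in G2/M. Its G2/M level was 2.04 times that of G1 (1.70 to 2.44), and 2.06 times (1.70 to 2.48) without cluster 8, while its S level was 1.07 times that of G1 (0.830 to 1.38). Cdkn2c was at 9.98 CPM in G2/M and 6.38 CPM in G1, a ratio of 1.57 (1.03 to 2.33).

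Cdkn2b was the one gene of the 7 with a lower G2/M level, at 40.2 CPM against 52.5 CPM in G1, a ratio of 0.766 (0.637 to 0.915). Without cluster 8 it was 0.799 (0.660 to 0.962). Cdkn1c was at 4.10 CPM in S, from 12 UMIs, and 7.64 CPM in G1, a ratio of 0.537 (0.269 to 0.980) whose interval held 1 without cluster 8 (0.554, 0.268 to 1.03). Cdkn1a was at 14.3 CPM in G1, 30.4 CPM in S and 32.9 CPM in G2/M. Without cluster 8 these levels were 13.0, 11.6 and 15.9 CPM, and the ratios of S (0.891, 0.584 to 1.32) and of G2/M (1.22, 0.875 to 1.68) to G1 held 1. By 1.5-fold, 3 of the 7 genes were higher in G2/M than in G1 (Cdkn1a, Cdkn2c and Cdkn2d) and none lower, where 6.56% of genes were higher and 2.87% lower. In S, 1 was higher (Cdkn1a) and 1 lower (Cdkn1c), where the shares of genes were 4.35% and 3.36%. Free RNA can enter such phase calls too, and its part was not measured.

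The rest of the cell cycle machinery is given for scale, from lists of pathway genes counted at 1.5-fold between the 521 and the 1371 cells, where 5.43% of all genes were higher and 0.508% lower. Of 10 cyclins and CDKs with enough UMIs 5 were higher, up to 9.78-fold for Ccnb1 and 9.20-fold for Ccnb2, while Ccnd3 was at 1.03-fold; none was lower. All 14 S phase and all 20 G2/M genes were higher, which the choice of Mki67 and Top2a favours. Mki67 and Top2a are themselves among the G2/M genes, so their place was fixed by how the cells were grouped. Cdk1, Ccnb1 and Ccnb2 are both on the G2/M list and among the cyclins and CDKs. Of 6 genes of the retinoblastoma and E2F families 1 was higher, E2f1 at 2.05-fold. Of 17 p53 pathway genes 2 were higher, Zmat3 at 1.82-fold and Aen at 1.60-fold. Of 8 Polycomb genes, whose products silence the Cdkn2a and Cdkn2b region in many cells, 1 was higher, Ezh2 at 1.75-fold. Of 14 genes that act on the inhibitors' turnover or transcription 2 were higher, Cks1b (3.15-fold), whose product helps to mark p27 for destruction, and its relative Cks2 (3.02-fold).

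The inhibitors were not spread alike over the clusters, which are called by number and leading genes because none was named. Cluster 1 (423 cells) was led by Nav3, Khdc1b and Cadps, cluster 2 (390) by Ly6m, Sprr1a and Ndrg1, cluster 3 (322) by Psca, Prss22 and Gmpr2, and cluster 4 (301) by 2610528A11Rik, Mt1 and Snhg16. Cluster 5 (197) was led by Aox3, Scgb3a1 and Trf, cluster 6 (117) by Aspm, Knl1 and Dlgap5, and cluster 7 (79) by Ccl20, Cxcl2 and Cxcl5. Aspm, Knl1 and Dlgap5 act in mitosis, and 95.7% of the cells of cluster 6 had a Mki67 or Top2a UMI. These leading genes were not on the lists of cell cycle genes left out of the clustering. Genes that go with the inhibitors took part in the clustering, so the levels that follow are a description.

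Cdkn2a differed between the clusters. It was at 683 CPM (652 to 714) in cluster 3, 667 CPM (628 to 707) in cluster 6, 659 CPM (610 to 711) in cluster 7 and 595 CPM (574 to 617) in cluster 1. It was at 428 CPM (397 to 462) in cluster 5, 361 CPM (345 to 378) in cluster 2, 305 CPM (281 to 331) in cluster 4 and 242 CPM (213 to 274) in cluster 8. The intervals of clusters 3, 6 and 7 overlapped, and each of these 3 lay above clusters 2, 4, 5 and 8. The intervals of clusters 2, 4, 5 and 8 did not overlap each other. In cluster 6, led by mitotic genes, all cells had a Cdkn2a UMI, and after thinning 83.5% (75.4 to 89.7).

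The other INK4 genes followed other orders. Cdkn2b was highest in cluster 2, at 61.0 CPM (54.4 to 68.3), and lowest in cluster 5, at 31.4 CPM (23.3 to 41.4). Cdkn2d was highest in cluster 6, at 64.1 CPM (52.5 to 77.4), followed by cluster 7 at 38.1 CPM (26.9 to 52.2), and lowest in cluster 3, at 19.1 CPM (14.3 to 25.02). Cdkn2c was also highest in cluster 6, at 11.98 CPM (7.32 to 18.5) from 20 UMIs, and that interval overlapped those of all clusters but cluster 1.

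Among the CIP/KIP genes, Cdkn1b was at 66.2 CPM (59.3 to 73.7) in cluster 2 and 64.1 CPM (52.5 to 77.4) in cluster 6. It was at 26.7 CPM (21.0 to 33.5) in cluster 3 and 18.6 CPM (11.2 to 29.1) in cluster 8. Cluster 2 thus had the highest Cdkn1b and Cdkn2b values with less Cdkn2a than cluster 3. Cluster 3 had the highest Cdkn2a value with low Cdkn1b. In both, Cdkn2a was the most abundant of these 3 genes. By 1.5-fold against all other cells, Cdkn1b was the 1 inhibitor of 7 higher in cluster 2 (1.56, 1.37 to 1.79) and Cdkn2a the 1 lower (0.663, 0.630 to 0.698), where 6.48% of genes were higher and 10.5% lower. Cdkn1c ran from 3.77 CPM (cluster 5) to 9.51 CPM (cluster 2), with 6 to 48 UMIs a cluster and overlapping intervals.

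Cdkn1a was the gene with the widest range by fold. It was at 147 CPM (125 to 173) in cluster 8 and between 4.40 CPM (1.77 to 9.06, cluster 5) and 21.6 CPM (17.7 to 26.1, cluster 2) elsewhere. Cluster 8 held 150 of the 404 Cdkn1a UMIs (37.1%) in 5.07% of all gene UMIs. Of its 63 cells 30 had a Cdkn1a UMI, and 13 of the 16 cells of the library with 5 or more Cdkn1a UMIs were there. Thinned shares were 24.2% (14.2 to 36.7) in cluster 8 and 4.005% (3.14 to 5.02) in the other clusters.

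**Figure D4:**
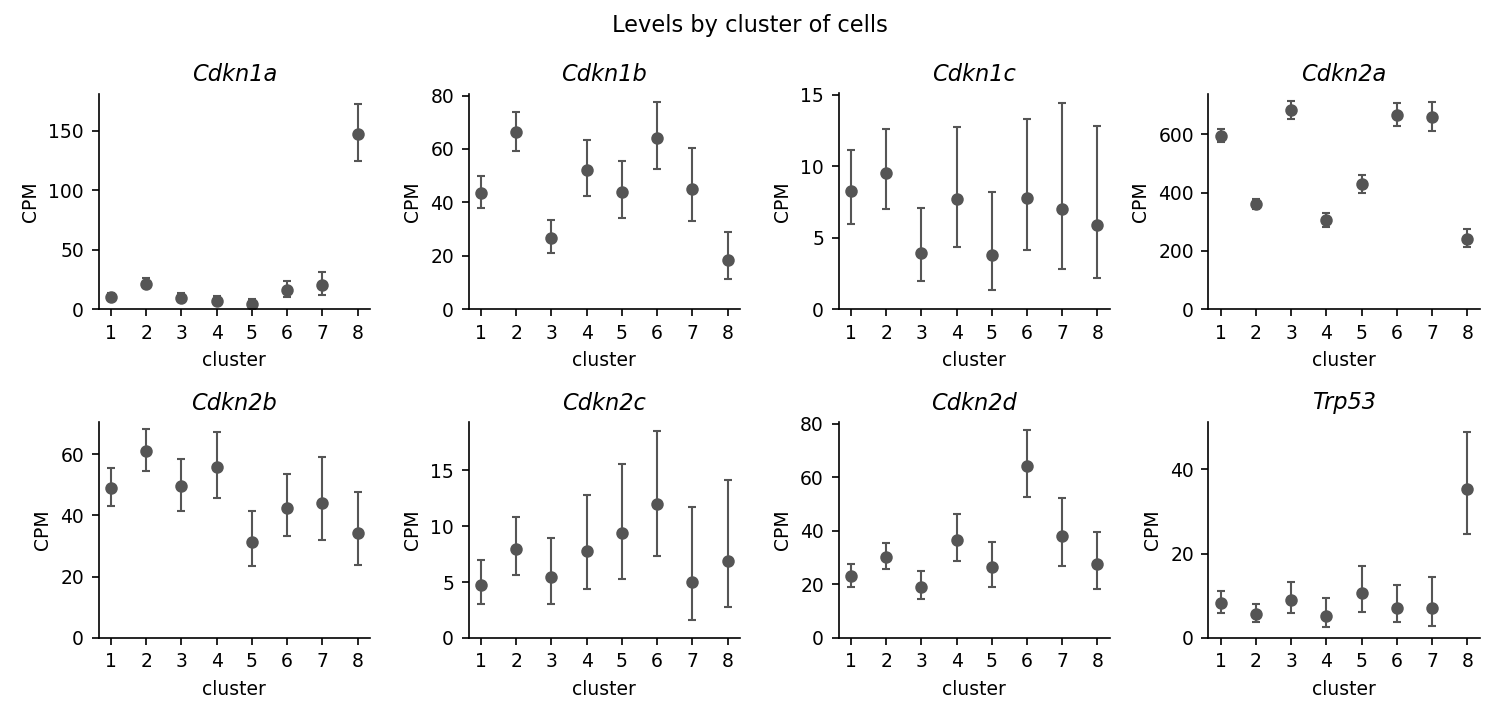
Level in CPM of each CDK inhibitor and of Trp53 in the 8 clusters of cells, with exact 95% counting intervals; each panel has its own axis from 0. Cdkn1a and Trp53 peak in cluster 8, Cdkn2d in cluster 6, and Cdkn2a is lowest in cluster 8.

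Against all other cells together, cluster 8 had 11.1 times the Cdkn1a level (8.98 to 13.6). It had less Cdkn2a, at 242 against 512 CPM, a ratio of 0.473 (0.415 to 0.537), less Cdkn1b, at a ratio of 0.374 (0.224 to 0.587), and less Cdkn2b, at 0.678 (0.470 to 0.950). The intervals of Cdkn1c (0.792), Cdkn2c (0.979) and Cdkn2d (0.905) held 1. With coarser clustering, at resolution 0.3, the cluster with the highest Cyba ratio held 163 cells, 62 of them from cluster 8, and the intervals of Cdkn2a (0.983, 0.925 to 1.04) and Cdkn1b (0.977, 0.797 to 1.19) held 1, while those of Cdkn2d (1.85, 1.503 to 2.25), Cdkn2c (1.71, 1.08 to 2.61) and Cdkn1a (5.45, 4.45 to 6.67) lay above 1. Cdkn2b was at 0.781 (0.628 to 0.963) there, and the interval of Cdkn1c (0.935, 0.529 to 1.56) held 1. In cluster 8 itself, at 1.5-fold, 1 of the 7 was higher and 2 lower, where 20.8% of genes were higher and 17.1% lower. By size, the ratio of Cdkn1a was at or above that of 99.7% of genes, that of Cdkn2a of 7.43% and that of Cdkn1b of 4.43%. The median of the 7 was 0.792, and that of all genes 1.05. Of the 63 cells 53 had a Cdkn2a UMI, with a median of 3.

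Several other genes differed in cluster 8, where the shares of all genes past 1.5-fold were 20.8% higher and 17.1% lower. Trp53, the gene of p53, was at 35.3 CPM against 7.38 CPM, a ratio of 4.78 (3.22 to 6.94). Of 17 p53 pathway genes 9 were higher, among them Zmat3 at 6.77-fold and Ccng1 at 5.22-fold, and 4 were lower, with Btg2 at 0.568-fold and Gadd45a at 0.601-fold at the low end; their median was 1.78. Cells with Mki67 or Top2a were 63.5% of the cluster, and all 14 S phase and 20 G2/M genes were higher. Of 10 cyclins and CDKs 7 were higher, up to 5.58-fold for Ccna2, and 1 was lower, Ccnd3 at 0.596-fold. Of 8 Polycomb genes 1 was higher, Ezh2 at 2.75-fold, and 3 were lower, among them Cbx7 at 0.538-fold. Of 10 immediate early and stress genes, 9 were lower and none higher. Of 14 turnover and transcription genes 4 were higher, led by Cks2 at 2.40-fold, and 4 were lower, down to 0.358-fold for Smad7.

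Markers of cell identity and sex also differed there. All 4 pit cell genes were higher, at 5135 CPM summed against 173 CPM. Pit cells were not the only class whose genes stood out: Pgc, a chief cell gene, was at rank 5 among the leading genes of the cluster, at 59.5-fold, with a UMI in 22.2% of its cells. The 4 Y-linked genes had 68.7 CPM summed against 0.942 CPM, and Xist, the RNA of the inactive X chromosome, 81.4 CPM against 499 CPM. The 6 mesenchymal genes were at 0 in the cluster. Its cells were deep, with a median of 14281 UMIs. Y-linked UMIs were found in 50 cells of the library, and 33 of these belonged to cluster 8. Set against the cells with none, these 50 had a Cdkn1a ratio of 8.89 (7.06 to 11.1), a Cdkn2a ratio of 0.510 (0.441 to 0.586) and a Trp53 ratio of 4.44 (2.83 to 6.72). The part of sex, cell identity and depth in the Cdkn1a level was not tested, and the labels do not say which animals gave which cells.

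Within cluster 8 the pooled Cdkn1a level was lower in cells with the marks of division. The 40 cells with a Mki67 or Top2a UMI had 124 CPM (99.8 to 152) of Cdkn1a and the 23 cells without had 210 CPM (160 to 272), a ratio of 0.589 (0.420 to 0.833). The 40 cells were deeper, with a median of 16485.5 UMIs against 10236. In the other 7 clusters the levels were 17.3 CPM (14.2 to 20.8) with and 11.3 CPM (9.57 to 13.3) without. Cdkn1a was thus higher in cluster 8 both with and without the marks. The pooled ratio of 1.84 combined a ratio of 1.52 outside the cluster with 0.589 inside it. The intervals of the thinned shares within cluster 8 overlapped (12.7% to 41.2% with and 7.82% to 45.4% without), so at equal depth no direction was shown. Cdkn1a UMIs were uneven there, with a median of 0 per cell, a highest count of 18, and 5 or more in 13 of the 63 cells. The interval of the ratio of 0.589 does not cover that spread between cells.

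Trp53 was at 35.0 CPM (22.9 to 51.3) with and 36.2 CPM (17.4 to 66.6) without these marks in the cluster. Cdkn2a was at 258 CPM (223 to 298) with and 199 CPM (150 to 259) without, and outside the cluster at 559 and 489 CPM. Cdkn2d was at 33.6 CPM (21.8 to 49.7) with and 10.9 CPM (2.24 to 31.8) without, from 25 and 3 UMIs, and outside it at 38.2 and 26.5 CPM. Inside the cluster the intervals with and without the marks overlapped for both genes, and the Cdkn2a ratio of 1.30 had an interval that held 1 (0.956 to 1.78).

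**Figure D5:**
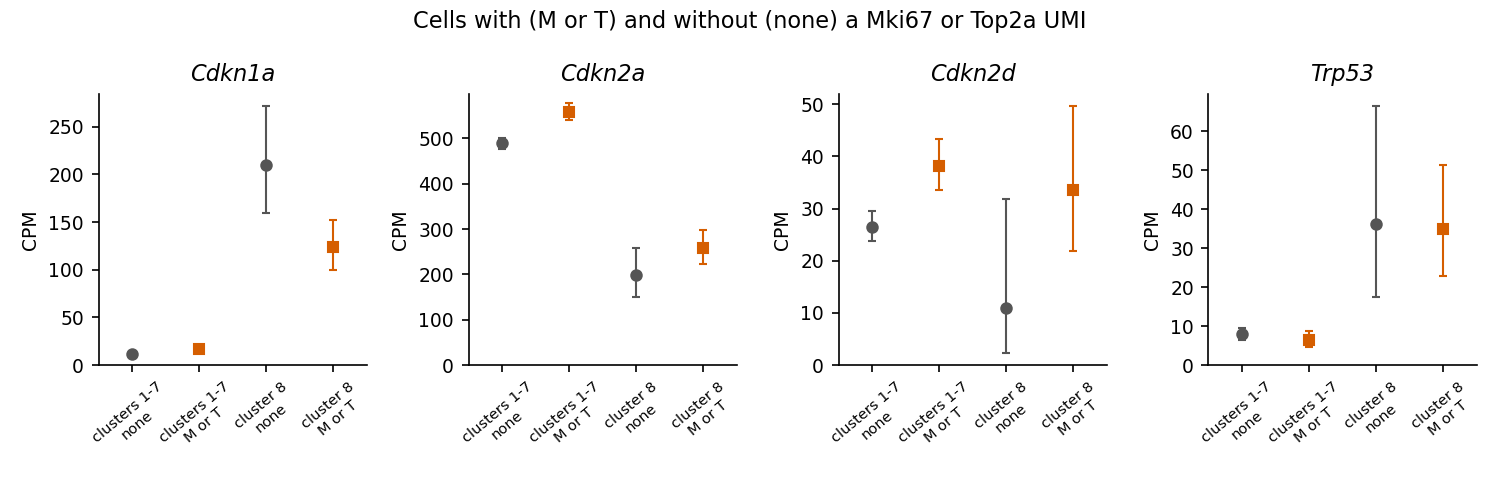
Level in CPM of Cdkn1a, Cdkn2a, Cdkn2d and Trp53 in cells with (M or T) and without (none) a Mki67 or Top2a UMI, in clusters 1 to 7 and in cluster 8, with exact 95% counting intervals and axes from 0. Cdkn1a is at 124 and 210 CPM in cluster 8 and at 17.3 and 11.3 CPM in the other clusters.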

How the data were processed

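Single-cell RNA was measured in 1 wild type library of mouse gastric organoids. The deposited matrix holds UMI counts, not normalised, of 32285 genes and 12 multiplexing tags in 1991 barcodes. It was written by Cell Ranger 6.1.2, per the file headers, and mapping used the build GRCm38 (mm10), per the submitters' processing notes; the annotation is not given in the sources used here. The kit is labelled 10x Genomics 3' v2. No column was left unused.

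Tags were kept out of UMI totals. Cells with at least 500 genes and at most 20% mitochondrial UMIs were kept, 1892 of 1991. Scrublet (scanpy 1.11.5) at an expected rate of 0.8% per 1000 barcodes called 12 doublets (0.634%), which were kept, since the choice of cells had no doublet step; their removal was an alternative. CPM were computed from the deposited counts with exact Poisson intervals, shares with exact Clopper-Pearson intervals, and ratios with exact conditional binomial intervals. UMIs were thinned to 3000 per cell without replacement. Clusters came from 2000 variable genes, 30 principal components, 15 neighbours and Leiden (leidenalg 0.10.2) at resolution 0.6. The inhibitors, the listed cell cycle and sex-linked genes and the mitochondrial genes were left out of them. Ratios were computed over 8653 genes with at least 100 UMIs. Of 32285 gene identifiers 32235 were found in GENCODE M21. Ratios were checked on simulated pooled counts with Poisson error only. That check had no variation between cells and says nothing of it.

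The inhibitors, the pathway lists and the markers were chosen with earlier results of these data known. Genes named were the 7 inhibitors, Mki67, Top2a and Trp53, up to 2 genes at each end of each pathway list, up to 3 leading genes a cluster by fold, and up to 5 genes most correlated with each inhibitor of at least 200 UMIs. Genes named beyond this, as examples or where a count was small, were chosen after their values were seen. Alternatives were other cell filters, doublets removed, means over cells, single tags, other calls of dividing cells, depth classes, thinning and other cluster resolutions.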

Additional observations from a re-analysis of the deposited data

How the results depend on the processing

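Of 242 values recomputed for 41 results under 22 alternatives, 183 stayed within the counting interval of the reported value or, for the number of clusters, within 1.5 times of it (11 at resolution 1.0 and 7 without called doublets, against 8). A further 58 moved past that, and 1 ratio whose reported interval excluded 1 crossed to an interval on the other side, Cdkn1a in cluster 8 alone. Ratios whose reported interval held 1 are counted by how far they moved, also where they changed side of 1, as Cdkn1b, Cdkn1c and Cdkn2c did below by Mki67 or Top2a and Cdkn2c and Cdkn2d at resolution 0.3 (1.71 for Cdkn2c). No paired analysis was possible because a single library was given. The alternatives by Y-linked UMIs, those within cluster 8 alone, and those by phase or by both marks without cluster 8 were chosen after seeing the data. The cause of each change below was not tested, except that thinning leaves fewer UMIs.

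Levels moved for Cdkn1a, to 13.3 CPM without cluster 8 and 17.3 CPM as a mean over cells, and for Cdkn2a, to 512 CPM without cluster 8. The other 46 of 49 level values stayed inside. Thinning gave 80.4% of cells with 1 or more inhibitors and 25.9% with 2 or more.

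By Mki67 or Top2a, the Cdkn1a ratio turned to 0.589 in cluster 8 alone. It was 2.74 for both marks, 1.07 in the shallowest of 3 depth classes, 1.07 for S or G2/M against G1 without cluster 8 and 1.14 for both marks without it. In cluster 8 alone the ratio was 1.98 for Cdkn1b, 0.743 for Cdkn1c, 1.30 for Cdkn2a, 0.495 for Cdkn2b, 2.23 for Cdkn2c and 3.10 for Cdkn2d. Thinning, with cells grouped by the marks left in them, gave 0.825 for Cdkn1b, 0.787 for Cdkn1c, 0.653 for Cdkn2b and 2.38 for Cdkn2c. In the middle depth class the ratio was 1.93 for Cdkn1c, 1.25 for Cdkn2a and 1.80 for Cdkn2d, and in the shallowest 0.688 for Cdkn2c. By Mki67 alone it was 1.02 for Cdkn2a and 1.71 for Cdkn2d, and by Top2a alone 1.14 for Cdkn2a. Both marks gave 2.17 for Cdkn2c and 2.07 for Cdkn2d, and without cluster 8 also 1.26 for Cdkn1b, 1.31 for Cdkn2a, 2.47 for Cdkn2c and 2.26 for Cdkn2d. S or G2/M against G1 gave 0.889 for Cdkn1c, and without cluster 8 0.899, with 1.16 for Cdkn2a. Leaving out cluster 8 gave 1.14 for Cdkn2a, and a mean over cells 1.15.

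For pairs, thinning gave a Cdkn1b ratio by Cdkn1a of 0.740, by Cdkn2d of 1.40, a Cdkn2a ratio by Cdkn1a of 0.937, by Cdkn2d of 1.09, by Cdkn1b of 0.952 and by Cdkn2b of 1.16, and a Cdkn2b ratio by Cdkn1b of 1.44; Cdkn2a by Cdkn1a was 0.928 without cluster 8. At resolution 0.3 there were 3 clusters, and the one with the highest Cyba ratio held 163 cells, 62 of them from cluster 8. Its ratio was 5.45 for Cdkn1a, 0.977 for Cdkn1b, 0.983 for Cdkn2a and 1.85 for Cdkn2d. Cells with a Y-linked UMI gave 8.89 for Cdkn1a. Depth limits Cdkn1c and Cdkn2c most, with 148 and 141 UMIs.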
